A study of Mus musculus with 19 samples.

Results

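The nuclear-encoded respiratory chain genes were followed in regulatory T cells (Tregs). They were taken as every row of the count table whose symbol begins with Ndufa, Ndufb, Ndufc, Ndufs, Ndufv, Uqcr or Atp5 or with Cox followed by a digit from 4 to 8, together with Sdha, Sdhb, Sdhc, Sdhd, Cyc1 and Cycs, while the Ndufaf assembly factors were left out. This rule uses names only and found 88 of the 24982 genes in the table, of which 39 were placed in complex I, 4 in complex II, 9 in complex III, 18 in complex IV, 17 in complex V and 1, Cycs, is the mobile carrier cytochrome c. Ndufa4 was kept with complex I by its name, although it is now counted to complex IV, and Ndufab1 is both a complex I subunit and the mitochondrial acyl carrier protein. Cox7a2l, which joins complexes into supercomplexes, Atp5s, which RefSeq names Dmac2l, and Ndufb4c, a relative of the subunit gene Ndufb4, are not chain subunits in the strict sense. The chain subunits encoded in mitochondrial DNA were not analysed here.

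CD4+FoxP3-GFP+ Tregs had been sorted as CD44high or CD44low from injury-site draining lymph nodes of Foxp3DTR mice aged 8 to 16 weeks, with RNA from 50000 cells for each sample. All 4 groups carry the Foxp3DTR allele, which drives the diphtheria toxin receptor and GFP from the Foxp3 locus, and no toxin treatment is named for these samples. Injured mice had a burn of 20% of the body surface from a bath at 90 °C for 9 seconds and were sampled at day 7. Uninjured mice, whose samples are labelled sham, went through the same procedure with water at room temperature for 9 seconds. The labels give 4 CD44high and 5 CD44low samples from uninjured mice and 4 CD44high and 6 CD44low samples from injured mice, without saying whether a sample is 1 mouse or a pool, so p-values measure the spread between these samples, which may in part be technical. Libraries held between 5582234 and 9433610 counts, and low counts kept 10 of the 88 genes out of the edgeR tests, leaving 78. The sort could be checked on Cd44, which was higher in every CD44high library (541 to 626 CPM, counts scaled to a common library total, in uninjured and 369 to 496 CPM in injured mice) than in every CD44low library (111 to 155 and 102 to 150 CPM). Injured CD44low libraries 1_2, 4_2 and 5_2 carry a second number whose meaning the labels do not give.

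The respiratory chain passes electrons from NADH (complex I) or succinate (complex II) through complex III and cytochrome c to oxygen at complex IV, and complexes I, III and IV pump protons whose return through complex V, the ATP synthase, makes ATP. Most of its subunits are encoded in the nucleus by genes on many chromosomes, and the factors NRF1, GABP (of the ETS family), ERR and YY1 are known to act on many of their promoters. Tregs are known for leaning on oxidative phosphorylation more than effector T cells, and T cells that are activated enlarge their mitochondria.

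Promoter windows (250 bases before to 50 after the transcription start, RefSeq, GRCm38.p6) were at hand for 70 of the 88 genes, in 75 windows. The core NRF1 motif CGCATGCG occurred in 13.3% of these 75 windows against 1.87% of all 32851 windows and 4.02% of the windows of genes tested here, and the YY1 motif AAGATGGC in 13.3% against 2.75% and 4.61%. The ETS motif CCGGAAG stood in 21.3% of them against 8.86% and 18.7%. The ERR motif TCAAGGTCA was found in 2 of the 75 windows (2.67%, against 0.423% of all), and the GC box GGGCGG in 41.3% against 35.7% and 62.3%. CCAAT (42.7% against 37.4% and 37.8%) and TATAAA (10.7% against 13.6% and 6.90%) completed the 7 motifs searched, each read on both strands, with no window where the ETS and YY1 motifs overlapped. Of the NRF1 windows 4 belonged to complex V, 2 to complex III, 2 to complex I, 1 to complex IV and 1 to Cycs, and of the YY1 windows 7 belonged to complex I and 3 to complex V. A match says only that these letters lie in the window.

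The windows of 4 members on which the results below turn are shown 5′ to 3′ on the gene's own strand, with matches to the 7 motifs in capitals. Uqcr10, Sdhd and Cox8a were higher in CD44high Tregs and Cox7a2l was lower, and each lies on the minus strand. They are at chr11:4704295-4704594, chr9:50603800-50604099, chr19:7217567-7217866 and chr17:83514284-83514583.
Uqcr10: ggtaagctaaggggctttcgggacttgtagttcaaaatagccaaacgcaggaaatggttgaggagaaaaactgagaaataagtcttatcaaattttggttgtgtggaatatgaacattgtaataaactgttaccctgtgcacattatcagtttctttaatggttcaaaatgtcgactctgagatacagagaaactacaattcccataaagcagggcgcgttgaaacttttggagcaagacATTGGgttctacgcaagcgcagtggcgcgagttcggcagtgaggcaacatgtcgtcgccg
Sdhd: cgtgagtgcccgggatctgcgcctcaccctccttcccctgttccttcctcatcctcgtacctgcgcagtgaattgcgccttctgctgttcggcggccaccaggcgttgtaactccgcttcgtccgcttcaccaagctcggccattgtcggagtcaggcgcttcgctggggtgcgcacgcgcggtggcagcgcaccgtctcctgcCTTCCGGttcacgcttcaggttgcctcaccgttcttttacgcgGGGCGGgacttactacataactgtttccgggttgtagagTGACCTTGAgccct
Cox8a: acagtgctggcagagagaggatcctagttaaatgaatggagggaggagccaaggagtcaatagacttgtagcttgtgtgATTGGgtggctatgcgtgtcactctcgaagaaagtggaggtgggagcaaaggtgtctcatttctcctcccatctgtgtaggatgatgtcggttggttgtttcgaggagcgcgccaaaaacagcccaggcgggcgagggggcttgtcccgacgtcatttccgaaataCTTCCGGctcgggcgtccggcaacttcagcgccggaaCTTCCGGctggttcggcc
Cox7a2l: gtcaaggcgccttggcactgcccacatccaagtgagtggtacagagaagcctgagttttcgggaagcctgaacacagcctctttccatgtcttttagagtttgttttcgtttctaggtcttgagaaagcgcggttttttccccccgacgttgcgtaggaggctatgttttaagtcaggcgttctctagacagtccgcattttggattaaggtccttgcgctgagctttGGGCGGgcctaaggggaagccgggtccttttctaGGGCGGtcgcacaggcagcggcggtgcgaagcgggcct
The capitals mark a CCAAT match in Uqcr10, an ETS, a GC box and an ERR match in Sdhd, a CCAAT and 2 ETS matches in Cox8a, and 2 GC boxes in Cox7a2l. The ERR match of Sdhd was 1 of the 2 found among all member windows, and no NRF1 or YY1 match lay in the 4 windows shown.

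Summed over the 88 genes, the chain took between 1.08% and 1.60% of a library's counts. The share was 1.19% ± 0.0729 (SD, n = 5) in CD44low and 1.28% ± 0.0480 (n = 4) in CD44high Tregs of uninjured mice, and 1.33% ± 0.153 (n = 6) and 1.46% ± 0.106 (n = 4) in those of injured mice. CD44high libraries of injured mice (1.37% to 1.59%) lay above all libraries of uninjured mice, CD44high (1.22% to 1.34%) and CD44low (1.08% to 1.26%), while the other pairs of groups overlapped. Complex V held the largest part, from 0.490% ± 0.0279 in CD44low Tregs of uninjured mice to 0.5681% ± 0.0385 in CD44high Tregs of injured mice, followed by complex I with 0.314% ± 0.0257 and 0.3995% ± 0.0366. Complex IV moved from 0.154% ± 0.0123 to 0.200% ± 0.0121 between the same groups, complex III from 0.126% ± 0.0102 to 0.166% ± 0.0176, and complex II from 0.106% ± 0.00385 to 0.118% ± 0.00859. In bulk RNA, fewer cells with a high level and less RNA in each cell cannot be told apart.

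**Figure D1:**
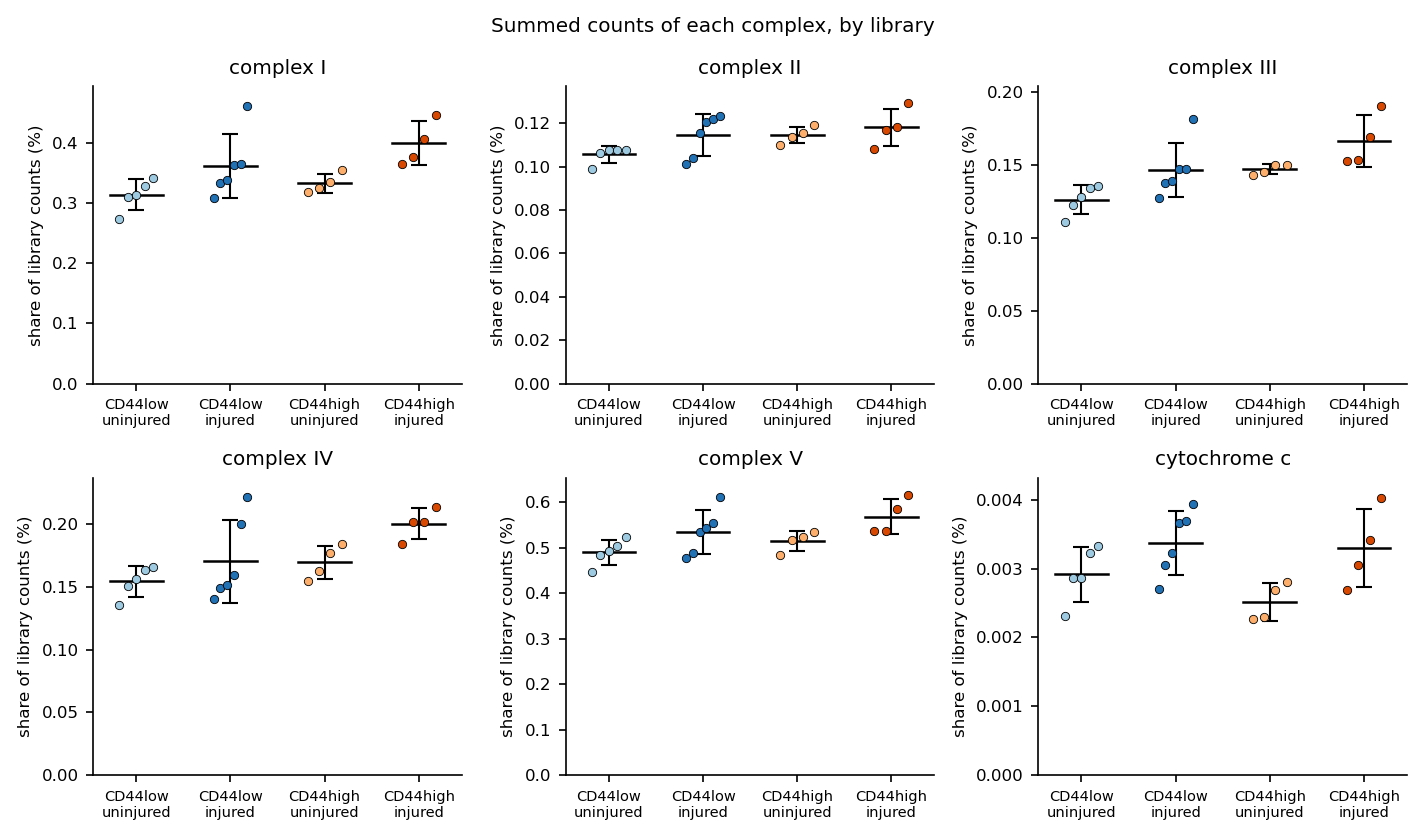
Share of each library's counts (%, y axis) taken by the genes of complexes I to V and by Cycs, in the 4 groups (x axis). Points are libraries (n = 5, 6, 4 and 4 from left to right), and the line with bars is the mean ± SD. Complex I ran from 0.274% to 0.462% over the 19 libraries, with its highest value in injured CD44low library 1_2.

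Levels can be compared between genes only per length. In CPM per kb of transcript, Atp5b, the catalytic beta subunit of ATP synthase, was the most abundant of the 77 tested members with a known length in all 4 groups, with means between 780 and 868 CPM per kb. Atp5a1, the alpha subunit, Cox4i1 and the c-ring gene Atp5g3 took the next places, for example with 527, 490 and 531 CPM per kb in CD44high Tregs of uninjured mice, values so close that their order changed from group to group. The median member lay at 118 CPM per kb in CD44low and 129 CPM per kb in CD44high Tregs of uninjured mice, and at 136 and 162 CPM per kb in those of injured mice. Cycs, with 8.19 to 10.8 CPM per kb over the group means, stood far below its partners Cyc1 (93.7 to 117 CPM per kb) and Cox4i1 (461 to 568 CPM per kb), although near-copies of Cycs in 51 other genes may take part of its reads. The Cycs value also rests on a length of 3123 nt, against 1520 nt for Cyc1. Without length, Cycs had 22.8 to 41.1 CPM and Cyc1 121 to 238 CPM over the libraries. Atp5s was the least abundant tested member in each group, with 2.85 to 4.14 CPM per kb.

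CD44high and CD44low Tregs of uninjured mice differed in 15 members of the chain. edgeR called 12 of 78 higher in CD44high Tregs, where 24.7% of all 11464 genes tested were called higher, and 3 of 78 lower, where 21.3% of all genes were called lower. In injured mice 15 of 78 were called higher (20.1% of all genes) and 1 lower (17.2% of all genes). The median log2 fold change of the members was 0.13 in uninjured and 0.17 in injured mice, against 0.01 and 0.00 over all genes. No called member changed 2-fold. Both counts of higher members moved with the samples in the fit. The share of all genes called in those other fits was not counted, so their counts cannot be set against it. The count of 12 in uninjured mice was 25 when only the groups compared were fitted, 24 without the 3 libraries with a second number and 20 without injured CD44low library 1_2. The count of 15 in injured mice was 7 when only the groups compared were fitted, with 8 called higher without injured CD44high library 2, 36 without injured CD44low library 1_2 and 39 without the 3 libraries with a second number. Groups did not overlap for 19 members that were higher (21.9% of all genes) and 3 that were lower (18.8%) in uninjured mice, and for 2 that were higher (15.6%) and 1 lower (9.2%) in injured mice.

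Transcript length moved with these comparisons. Members are short, with a median transcript of 732 nt against 2122 nt for all genes with a length. The mean log2 CPM of genes under 1000 nt, relative to that of genes over 4000 nt, deviated from the average library by -0.51 to -0.13 in the CD44low libraries of uninjured mice and by -0.05 to 0.10 in their CD44high libraries, which did not overlap. In injured mice the values were -0.34 to 0.58 in CD44low and -0.04 to 0.70 in CD44high libraries, and injured CD44high library 2 (0.70) and injured CD44low library 1_2 (0.58) stood highest. The mean deviation of the 78 members was largest in the same pair of libraries (0.35 and 0.44) and lowest in uninjured CD44low library 1 (-0.37), where the length measure was also lowest. Other genes under 1000 nt had medians of 0.05 in uninjured and 0.03 in injured mice, against 0.12 and 0.20 for the 48 members of that length, and in uninjured mice 24.1% of the 29 members of 1000 nt or more were called higher against 10.4% of the shorter ones. In injured mice these shares were 13.8% and 22.9%. Of other genes, 28.5% of those of 1000 to 4000 nt and 24.5% of those under 1000 nt were called higher in uninjured mice. The same shares in injured mice were 22.1% and 20.9%.

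The edgeR test was repeated with each library's trend on length taken out, and its outcome depended on how that correction was centred. Without centring, the correction itself moved the median of all genes to -0.15 in uninjured and -0.13 in injured mice. In that fit 9 members were called higher (19% of all genes) and 14 lower (31%) in uninjured mice, and 11 higher (16.7%) and 13 lower (27.9%) in injured mice, with member medians of -0.04 and 0.00. Of the calls made on counts as deposited it shared 7 of the 12 higher and all 3 lower in uninjured mice, and 11 of the 15 higher and the 1 lower in injured mice. The calls not shared were Atp5f1, Ndufa9, Ndufb8, Uqcrc1 and Uqcrfs1 in uninjured and Ndufb2, Ndufb8, Ndufs8 and Sdhb in injured mice. With the correction centred at its median in each library, a choice made after seeing the data, the median of all genes was 0.06 and 0.03. Then 30 members were called higher (27.3% of all genes) and 3 lower (19.1%) in uninjured mice, and 29 higher (22.7%) and 1 lower (17.4%) in injured mice, with member medians of 0.17 and 0.16, and all 15 and 16 calls made on counts as deposited were shared. Values given below with the length trend taken out come from the centred fit.

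**Figure D2:**
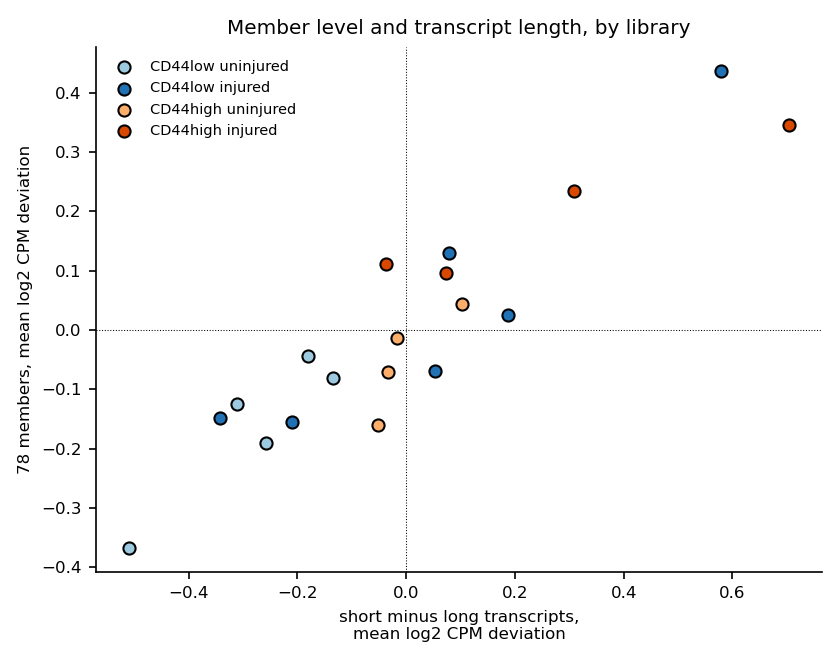
Mean log2 CPM deviation of the 78 tested members (y axis) against the deviation of transcripts under 1000 nt relative to those over 4000 nt (x axis, log2), 1 point per library. CD44low libraries of uninjured mice sit at the lower left, and injured CD44low library 1_2 and injured CD44high library 2 at the upper right.

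**Figure D3:**
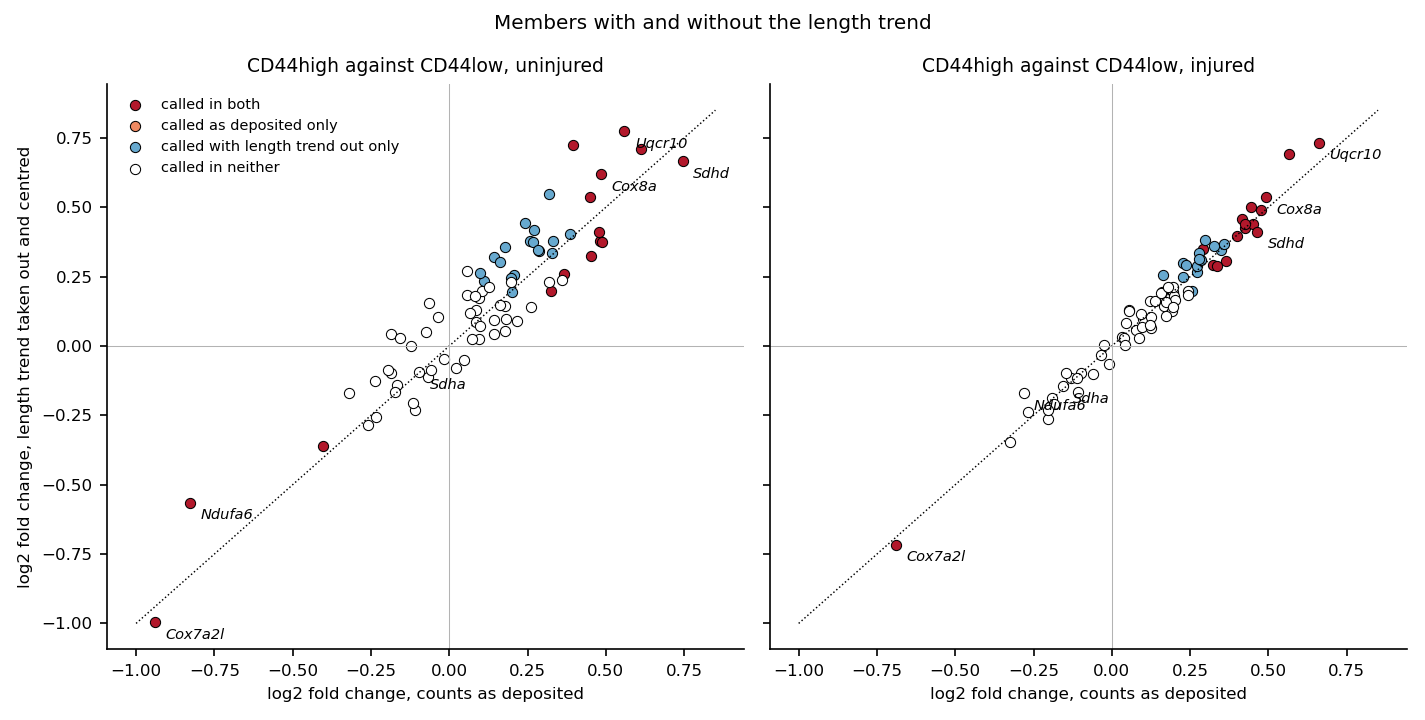
Log2 fold change of each tested member between CD44high and CD44low Tregs with counts as deposited (x axis) and with the length trend taken out and centred (y axis), in uninjured (left) and injured mice (right). Colours give the edgeR call in either fit. All members called on counts as deposited are called in both fits, among them Uqcr10, Cox8a, Sdhd and Cox7a2l, and further members are called only with the trend taken out.

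Complex II, succinate dehydrogenase, also serves the tricarboxylic acid cycle. In CD44high Tregs 2 of its 4 subunits were called higher in both uninjured (24.7% of all genes) and injured mice (20.1%). Sdhd, which anchors the enzyme in the inner membrane, had 118, 153, 139, 138 and 162 CPM in the CD44low libraries of uninjured mice and 237, 249, 232 and 235 CPM in the CD44high ones. No library of the one group reached the other, and Sdhd was higher in CD44high Tregs by 0.75 ± 0.11 (log2 fold change ± SE, edgeR adjusted p = 9.9e-06). In injured mice Sdhd had 146 to 209.9 (median 161) CPM in CD44low and 267, 202, 216 and 233 CPM in CD44high Tregs. There the groups met at injured CD44low library 1_2, with a log2 fold change of 0.46 ± 0.11 (edgeR adjusted p = 0.00155). Sdhb, the iron-sulfur subunit, had 179, 188, 202, 184 and 181 CPM in CD44low and 248, 256, 274 and 264 CPM in CD44high Tregs of uninjured mice, again with no overlap. Its log2 fold changes were 0.48 ± 0.11 in uninjured (edgeR adjusted p = 0.00105) and 0.33 ± 0.11 in injured mice (edgeR adjusted p = 0.0145). Without injured CD44high library 2 the latter call was lost, with an adjusted p of 0.122. Neither of the other two subunits was called. Sdha, the flavoprotein that oxidizes succinate, had log2 fold changes of -0.09 ± 0.09 and -0.16 ± 0.09 (edgeR adjusted p = 0.396 and 0.152), and Sdhc, the second membrane anchor, had -0.12 ± 0.12 and -0.20 ± 0.11 (edgeR adjusted p = 0.432 and 0.158). Both were called lower in both conditions with the length trend taken out but not centred, and neither was in the centred fit (-0.09 and -0.21 in uninjured mice, edgeR adjusted p = 0.367 and 0.102).

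In complex I, the NADH dehydrogenase, 3 of 37 tested members were called higher (24.7% of all genes) and 2 lower (21.3%) in CD44high Tregs of uninjured mice. In injured mice 6 were called higher (20.1% of all genes) and none lower (17.2%). Apart from Ndufs8 and Ndufa4 the called members are accessory subunits, which surround the core that carries the flavin and the iron-sulfur clusters. Most tested members of complex I are accessory, and this split was made after seeing the data. In uninjured mice 3 of 29 accessory and 0 of 7 core subunits were called higher, and 2 and 0 lower. In injured mice the shares called higher were 13.8% of accessory and 14.3% of core subunits. Ndufb7, an accessory subunit on the side of the intermembrane space, had 82.3, 92.4, 95.03, 102 and 93.9 CPM in CD44low and 141, 139.6, 159 and 131 CPM in CD44high Tregs of uninjured mice. These did not overlap, and the log2 fold changes were 0.61 ± 0.14 in uninjured and 0.43 ± 0.13 in injured mice (edgeR adjusted p = 0.00110 and 0.0151). The call in injured mice was lost without injured CD44high library 2 (adjusted p = 0.0897). Ndufb8 (0.49 ± 0.14 and 0.37 ± 0.13, edgeR adjusted p = 0.00587 and 0.0307) and Ndufa9 (0.48 ± 0.13, edgeR adjusted p = 0.00504, in uninjured mice) were higher too. Ndufa6, an accessory subunit of the LYR family, was lower in CD44high Tregs of uninjured mice. It had 79.2, 85.0, 86.0, 98.2 and 87.9 CPM in CD44low and 46.8, 45.4, 50.5 and 53.7 CPM in CD44high Tregs of uninjured mice. Every CD44high library lay below every CD44low library, at a log2 fold change of -0.83 ± 0.17 (edgeR adjusted p = 0.000311). In injured mice Ndufa6 had 69.1, 63.5 and 56.1 CPM in CD44low libraries 1, 2 and 5. The CD44low libraries with a second number, 1_2, 4_2 and 5_2, had 97.0, 119 and 101 CPM. CD44high libraries of injured mice, with 66.5, 75.6, 65.0 and 69.4 CPM, lay among the former and below the latter. The groups overlapped, and the difference was -0.28 ± 0.16 (edgeR adjusted p = 0.168). Ndufb3, a single-span accessory subunit, was lower in CD44high Tregs of uninjured mice, at -0.40 ± 0.14 (edgeR adjusted p = 0.0201), a call that was lost without uninjured CD44low library 4 (adjusted p = 0.0530).

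The further complex I members called higher in CD44high Tregs of injured mice were Ndufa4 (0.44 ± 0.13), Ndufb2 (0.45 ± 0.15), Ndufb9 (0.40 ± 0.13) and Ndufs8 (0.32 ± 0.12), with edgeR adjusted p = 0.00988, 0.0210, 0.0157 and 0.0415. Ndufa4, first isolated with complex I and now placed in complex IV, had 139 to 213 CPM in CD44low and 228, 212, 205 and 256 CPM in CD44high Tregs of injured mice, and only injured CD44low library 1_2 reached into the CD44high range. Its call held without each library in turn, whereas that of Ndufb9 was lost without injured CD44high library 2 (adjusted p = 0.121), that of Ndufb2 without each of 4 libraries (adjusted p from 0.0503 to 0.0629), that of Ndufb8 without each of 7 (0.0501 to 0.215) and that of Ndufs8, a core iron-sulfur subunit, without each of 14 (0.0509 to 0.211).

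Complex III hands electrons from ubiquinol to cytochrome c. Of its 9 members 3 were called higher in uninjured (24.7% of all genes) and 1 in injured mice (20.1%), and none lower (21.3% and 17.2%). Uqcr10, a small accessory subunit, was the member called in all 4 comparisons of groups. It had 58.7, 65.8, 75.0, 70.1 and 75.4 CPM in CD44low and 92.8, 89.9, 117 and 107 CPM in CD44high Tregs of uninjured mice. After injury it had 74.2 to 123 (median 95.2) CPM in CD44low and 163, 135, 141 and 169 CPM in CD44high Tregs. CD44high and CD44low libraries did not overlap in either condition, at log2 fold changes of 0.56 ± 0.13 and 0.66 ± 0.12 (edgeR adjusted p = 0.00142 and 0.000192). Both calls held in all 34 other fits, with the length trend taken out at 0.77 and 0.73. Uqcrc1, a core protein, was higher in uninjured mice by 0.45 ± 0.12 (edgeR adjusted p = 0.00291), from 379.5, 351, 383, 411 and 387 CPM in CD44low to 543, 561, 499 and 490.2 CPM in CD44high Tregs with no overlap. Uqcrfs1, the Rieske iron-sulfur protein, was higher by 0.37 ± 0.12 (edgeR adjusted p = 0.0192), a call lost without uninjured CD44high library 3 or uninjured CD44low library 1 or 2 (adjusted p from 0.0577 to 0.0998). Cyc1, the cytochrome c1 of this complex, was not called at 0.26 ± 0.13 and -0.01 ± 0.12 (edgeR adjusted p = 0.106 and 0.968), nor was Cycs at -0.17 ± 0.16 and -0.03 ± 0.15 (edgeR adjusted p = 0.403 and 0.913).

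Complex IV, cytochrome c oxidase, had 2 of 11 tested members called higher (24.7% of all genes) and 1 lower (21.3%) in uninjured mice. In injured mice 4 were called higher (20.1% of all genes) and 1 lower (17.2%). Cox5a, a subunit facing the matrix, had 143, 155, 159, 169 and 176 CPM in CD44low and 199, 225, 227 and 223 CPM in CD44high Tregs of uninjured mice, with no overlap. In injured mice it had 130.0 to 222 (median 165) CPM in CD44low and 237, 237, 223 and 250.3 CPM in CD44high Tregs, also with no overlap. The log2 fold changes were 0.45 ± 0.12 and 0.48 ± 0.11 (edgeR adjusted p = 0.00352 and 0.00193), and both calls held in all 34 other fits. Its partner Cox5b was not called at 0.33 ± 0.15 and 0.35 ± 0.14 (edgeR adjusted p = 0.0709 and 0.0545). Cox8a, a small membrane subunit, had 125, 116, 138, 136 and 154 CPM in CD44low and 167, 179, 197 and 207 CPM in CD44high Tregs of uninjured mice, again apart. It was higher by 0.49 ± 0.13 in uninjured and 0.49 ± 0.12 in injured mice (edgeR adjusted p = 0.00400 and 0.00308), and in the latter CD44high libraries (212, 223, 192 and 222 CPM) met the highest CD44low library (111 to 199.6 CPM). Cox7c (0.41 ± 0.14) and Cox6b1 (0.29 ± 0.11), also small subunits, were called higher in injured mice (edgeR adjusted p = 0.0213 and 0.0458). The Cox7c call was lost without injured CD44high library 5 or injured CD44low library 2 or 5 (adjusted p from 0.0569 to 0.109), and the Cox6b1 call when 1 of 17 libraries was left out (0.0510 to 0.109).

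Cox7a2l was lower in CD44high Tregs. This factor, which ties complex III to complex IV, had 65.8, 76.2, 78.4, 91.8 and 101 CPM in CD44low and 35.6, 34.5, 50.8 and 51.1 CPM in CD44high Tregs of uninjured mice. After injury it had 64.7 to 119.9 (median 76.2) CPM in CD44low and 59.6, 57.5, 45.8 and 54.3 CPM in CD44high Tregs. All CD44high libraries lay below all CD44low libraries of their condition, at log2 fold changes of -0.94 ± 0.19 and -0.69 ± 0.18 (edgeR adjusted p = 0.000324 and 0.00431), the lowest of the 78 tested members in either condition. With the length trend taken out they were -0.99 and -0.72. Without the 3 libraries with a second number the difference in injured mice was -0.35 and no longer called (adjusted p = 0.109). Its family member Cox7a2, a subunit in the strict sense, was not called at 0.10 ± 0.15 and 0.27 ± 0.14 (edgeR adjusted p = 0.622 and 0.135), and neither were Cox4i1 (0.09 ± 0.13 and 0.17 ± 0.12, edgeR adjusted p = 0.602 and 0.284) and Cox6a1 (0.26 ± 0.13 and 0.12 ± 0.13, edgeR adjusted p = 0.121 and 0.478).

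**Figure D4:**
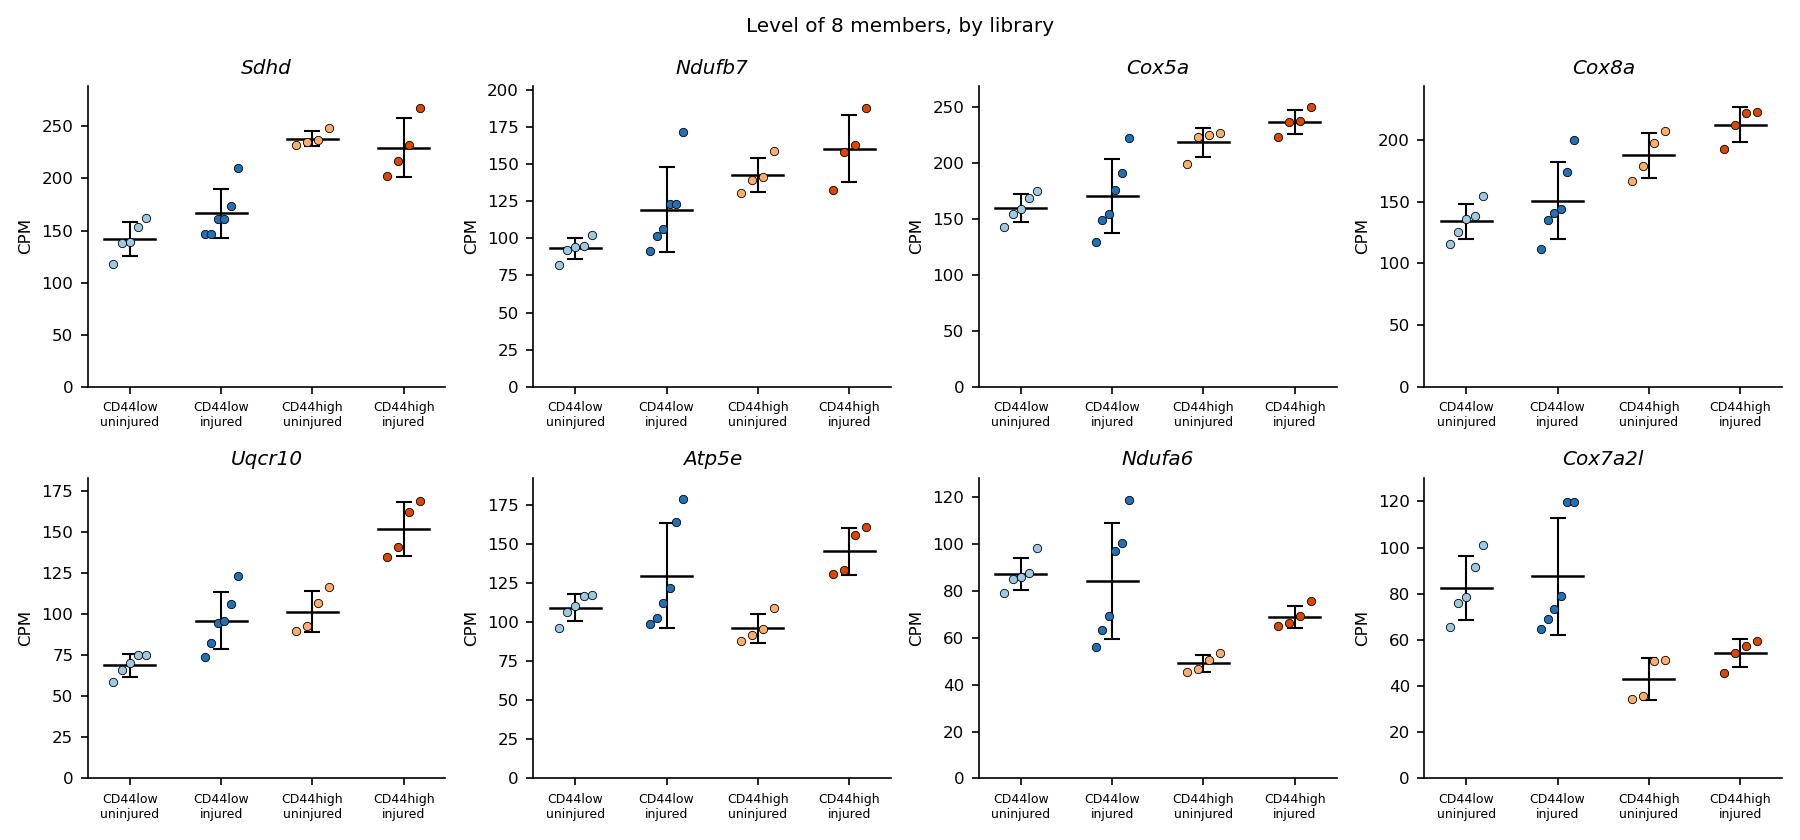
Level (CPM, y axis) of 8 members in the 4 groups (x axis), 1 point per library (n = 5, 6, 4 and 4), with mean ± SD. Sdhd, Ndufb7, Cox5a and Cox8a stand higher in CD44high than in CD44low Tregs of uninjured mice with no overlap, Ndufa6 and Cox7a2l stand lower with no overlap, and Uqcr10 and Atp5e are higher in injured than in uninjured mice in every CD44high library.

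In complex V, 2 of 16 tested members were called higher in uninjured (24.7% of all genes) and 2 in injured mice (20.1%), and none lower (21.3% and 17.2%). Atp5k, the e subunit of the membrane part, had 25.5, 29.4, 33.2, 34.5 and 35.9 CPM in CD44low and 36.0, 39.8, 46.5 and 44.2 CPM in CD44high Tregs of uninjured mice, apart by less than 1 CPM. Its log2 fold changes were 0.39 ± 0.16 and 0.57 ± 0.15 (edgeR adjusted p = 0.0480 and 0.00464), and the call in uninjured mice was lost when 1 of 14 libraries was left out (adjusted p from 0.0511 to 0.131). Over 56.6% of the Atp5k transcript a pseudogene carries a near-identical copy. Atp5f1, the b subunit of the stalk that holds the head, was called in uninjured mice (0.33 ± 0.11, edgeR adjusted p = 0.0164) and lost that call without uninjured CD44low library 1 (adjusted p = 0.0549). The c-ring, the part that turns, is encoded by 3 genes for the same mature protein, and Atp5g3 led them with 436 to 642 CPM per kb over the group means, against 25.2 to 31.8 CPM per kb for Atp5g1 and 23.8 to 28.1 CPM per kb for Atp5g2. These values rest on lengths of 718.5 nt for Atp5g3, 2675.5 nt for Atp5g1 and 586 nt for Atp5g2. Without length, Atp5g1 had 58.1 to 117 CPM and Atp5g2 8.55 to 22.8 CPM over the libraries. Near-copies of part of Atp5g1 in 19 other genes may also take part of its reads. Atp5g3 was called higher in CD44high Tregs of injured mice (0.42 ± 0.11, edgeR adjusted p = 0.00509) and at 0.29 ± 0.12 was not called in uninjured mice (0.0539). Atp5g1 (-0.24 ± 0.14 and -0.10 ± 0.13) and Atp5g2 (-0.24 ± 0.22 and 0.09 ± 0.21) were not called (edgeR adjusted p from 0.163 to 0.762). None of the 5 genes of the catalytic head (Atp5a1, Atp5b, Atp5c1, Atp5d and Atp5e), a subgroup named after seeing the data, was called in either condition. Their log2 fold changes ran from -0.19 to 0.18 in uninjured and from -0.06 to 0.24 in injured mice. With 24.7% and 20.1% of all genes called higher, no call among 5 genes does not set the head apart.

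Other cells and states moved with the CD44 comparisons, and their part in the members' differences was not tested. Near-identical sequence also bears on the values. Of the 78 tested members 36 share a stretch of at least 100 bases with another gene's transcript, 7 of them over at least 50% of their own. Exon bases are shared with a gene on the same strand by 5, among them Ndufb2, Ndufb8 and Ndufb9. With a gene on the other strand 24 share exon bases, which cannot be told apart where counting ignored strand. These 24 include Cox5a. Uqcr10 has a copy of 43.8% of its transcript in 4930481A15Rik, and Atp5f1 has copies of 64.6% of its own in 4 genes. The values of the members named here are uncertain to that extent. Of 10 genes of cycling cells, such as Mki67 and Top2a, 10 were called higher in CD44high Tregs in both conditions, and their summed level was 995 to 1264 CPM in CD44high against 236 to 293 CPM in CD44low libraries of uninjured mice, and 778 to 880 against 231 to 310 CPM in injured mice. A list of 8 macrophage and dendritic cell markers summed to 261 to 357 CPM in CD44high and 116 to 138 CPM in CD44low libraries of uninjured mice, with 8 of 8 called higher, and to 278 to 421 and 135 to 264 CPM in injured mice, with 4 of 8 called higher. No defining marker of that list was at 0 in a whole group. Over the 19 libraries 8 B cell markers summed to 87.9 to 262 CPM, with 1 called higher in uninjured mice, and 6 markers of CD8 T and NK cells to 46.5 to 75.6 CPM, with 1 called higher in each condition. Stroma and endothelium markers (2 of 6 tested, 1 called higher and 1 lower) summed to 59.3 to 114 CPM in CD44high and 135 to 230 CPM in CD44low libraries. Of the 9 genes of the Treg and sort list 3 were called higher and 2 lower in uninjured and 4 higher and 2 lower in injured mice, with 5848 to 6678 CPM in sum over all libraries. Beside these marker counts, 24.7% of all genes were called higher and 21.3% lower in uninjured mice, and 20.1% and 17.2% in injured mice.

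Of the 10 members that did not pass the filter, most are isoforms known from other tissues. Cox4i2, of lung, had 29 counts over the 19 libraries, Cox7a1, of heart and muscle, 37, of which 29 in the CD44high libraries, Cox6b2, of testis, 74, and Ndufa4l2, a hypoxia-induced relative of Ndufa4, 8. No count fell on Cox7b2, Cox8b or Cox8c, and 7 fell on Ndufb4c. The low 134 counts of Atp5l, a ubiquitous subunit of ATP synthase, go with near-identical copies over 86.8% of its transcript in 11 other genes, so that its level is uncertain. Cox6a2, the muscle isoform of Cox6a, was singled out after its values were seen. It had 101 counts in the 8 CD44high libraries, with 4 to 25 in each, and 1 count in the 11 CD44low libraries. Siglech, a marker of plasmacytoid dendritic cells, also separated these libraries, with 9.29 to 21.7 CPM in CD44high and at most 1.73 CPM in CD44low libraries. Itgad, whose exons overlap Cox6a2 on the other strand, had 4 counts in the CD44high and none in the CD44low libraries. Which cells gave the Cox6a2 counts was not tested.

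Burn injury was asked of each subset in turn. In CD44high Tregs 2 of 78 members were called higher in injured than in uninjured mice, where 1.06% of all genes were, and none lower (1.33% of all genes). The CD44high count was 0 without uninjured CD44high library 2 or 3 or injured CD44high library 2 or 5, 15 when only the groups compared were fitted and 14 without the 3 libraries with a second number. For these other fits the share of all genes called was not counted. In CD44low Tregs 6 were called higher (4.24% of all genes) and none lower (3.36% of all genes). Most members shared the direction without a call. Log2 fold changes were above 0 for 70 of 78 members in CD44high and 75 of 78 in CD44low Tregs, with medians of 0.26 and 0.22 against -0.02 and 0.01 over all genes. Complex IV took 0.159%, 0.149% and 0.140% of counts in injured CD44low libraries 1, 2 and 5 (uninjured 0.135% to 0.166%). In 1_2, 4_2 and 5_2 it took 0.222%, 0.200% and 0.151%. All 88 genes took 1.35%, 1.28% and 1.22% in the former and 1.60%, 1.36% and 1.17% in the latter (uninjured 1.08% to 1.26%). In CD44high Tregs the 4 injured libraries lay above the 4 uninjured ones for 34 members (5.93% of all genes) and below for none (7.34%), while in CD44low Tregs the groups overlapped for all 78 (2.39% of all genes apart and higher, 2.29% apart and lower). At an unadjusted p under 0.05 edgeR passed 29 members that were higher (6.81% of all genes) and none that were lower (8.33%) in CD44high Tregs, and 27 that were higher (14.5%) and none that were lower (11.6%) in CD44low Tregs. With the length trend taken out and centred the medians were 0.10 and 0.09, and genes outside the chain with transcripts under 1000 nt had medians of 0.17 in CD44high and 0.18 in CD44low Tregs, against 0.31 and 0.22 for the 48 members of that length.

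**Figure D5:**
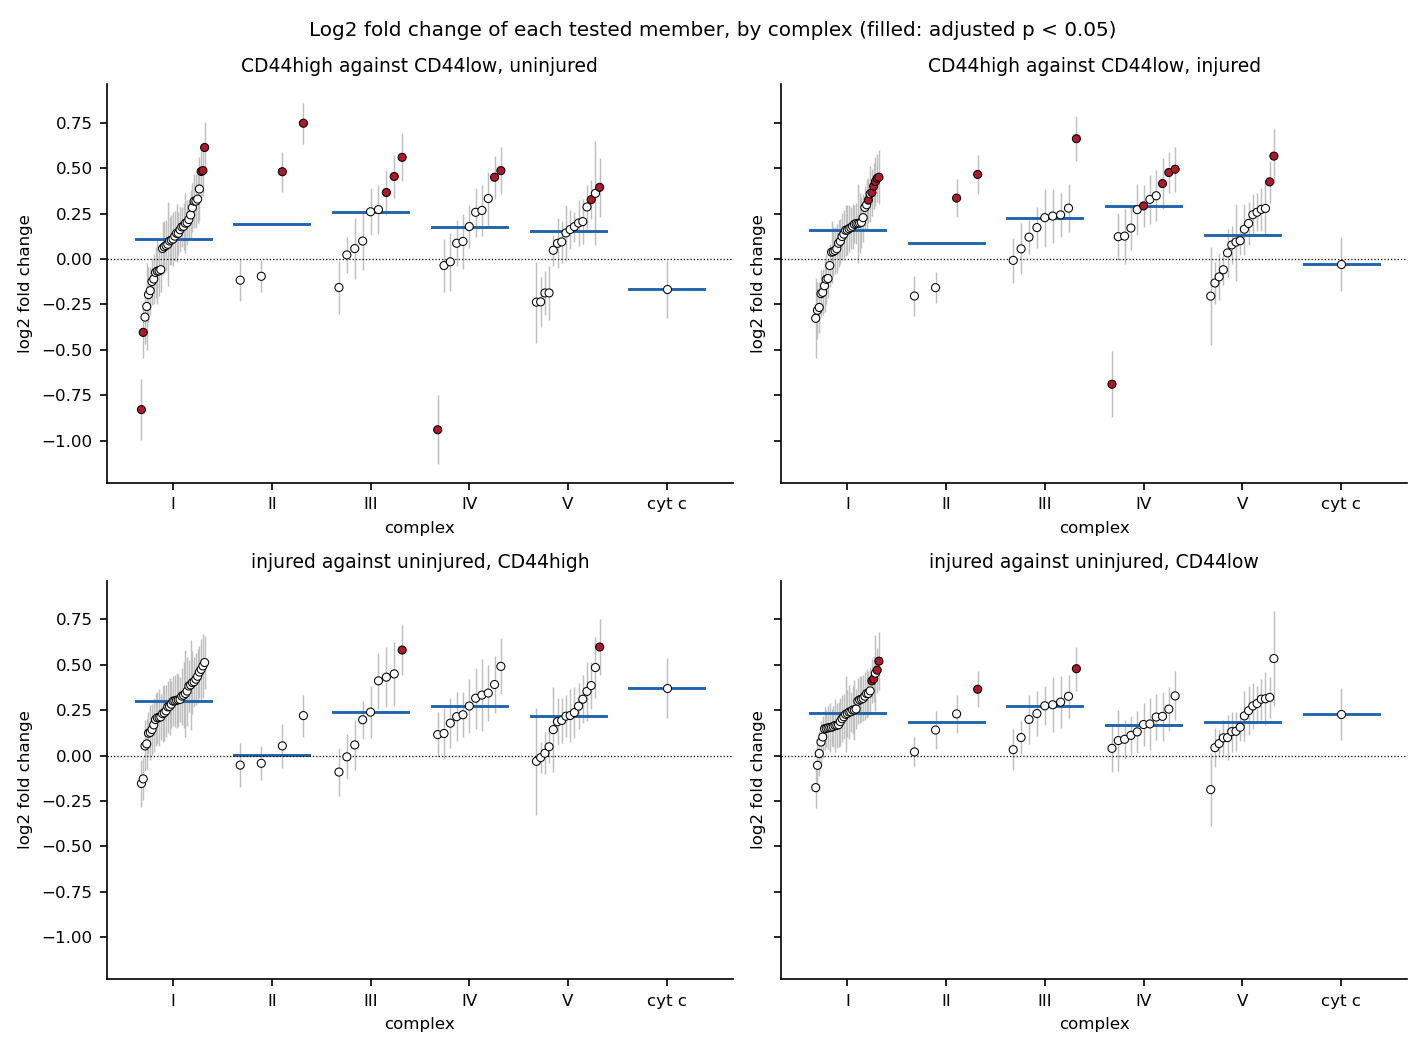
Log2 fold change ± SE (y axis) of each tested member, ordered by value within its complex (x axis), for the 4 comparisons of groups. Filled points passed an edgeR adjusted p of 0.05, and the blue line is the median of the complex. In both injury comparisons nearly all points lie above 0 and few are filled.

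Uqcr10 rose after injury in both subsets. In CD44high Tregs its 4 libraries of injured mice all exceeded those of uninjured mice, at a log2 fold change of 0.58 ± 0.14 (edgeR adjusted p = 0.0229). In CD44low Tregs the difference was 0.48 ± 0.12 (edgeR adjusted p = 0.0197), with 1 of the 6 injured libraries inside the uninjured range. Both calls held with the length trend taken out (0.35 and 0.39, adjusted p = 0.0370 and 0.00591). In CD44high Tregs the call was lost without uninjured library 2 or 3 or injured library 2 or 5 (adjusted p from 0.0649 to 0.0972), and in CD44low Tregs it was lost without the 3 libraries with a second number (adjusted p = 0.118). Atp5e, the epsilon subunit of the ATP synthase head, was the other call in CD44high Tregs. It had 88.1, 92.0, 95.5 and 109 CPM in uninjured and 156, 134, 131 and 161 CPM in injured mice, apart in every library, at 0.60 ± 0.16 (edgeR adjusted p = 0.0405), and the call was lost when 1 of 8 libraries was left out (0.0510 to 0.148). In CD44low Tregs Atp5e had 0.25 ± 0.13 (edgeR adjusted p = 0.245).

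The next members by p in CD44high Tregs were not called. Ndufa4 had 152, 132, 178 and 171 CPM in uninjured and 228, 212, 205 and 256 CPM in injured mice, apart in every library, at 0.51 ± 0.15 (edgeR adjusted p = 0.0631). Ndufb9 (0.46 ± 0.14), Cox7c (0.49 ± 0.15) and Ndufs6 (0.41 ± 0.14), small subunits of complexes I and IV, followed with edgeR adjusted p = 0.0897, 0.0995 and 0.128. The 6 members of smallest p below 0 were Ndufs1 (-0.15 ± 0.13), Ndufv1 (-0.13 ± 0.12), Uqcrfs1 (-0.09 ± 0.13), Sdha (-0.04 ± 0.09), Sdhd (-0.05 ± 0.12) and Atp5a1 (-0.01 ± 0.09), with edgeR adjusted p of 0.645 or more. Complex II had a median of 0.01 in CD44high Tregs, whereas the medians of the other complexes ran from 0.22 in complex V to 0.30 in complex I.

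In CD44low Tregs the calls other than Uqcr10 fell on complexes I and II. Ndufa8 had 76.4, 80.9, 89.4, 86.9 and 90.6 CPM in uninjured and 87.8 to 160.3 (median 114) CPM in injured mice, at 0.47 ± 0.12 (edgeR adjusted p = 0.0230). The groups overlapped at the lowest injured library, and the call was lost without injured library 1_2 (adjusted p = 0.0518). Ndufa12 (0.52 ± 0.16), Ndufb8 (0.42 ± 0.13), Ndufa9 (0.41 ± 0.12) and Sdhb (0.36 ± 0.10) had edgeR adjusted p = 0.0466, 0.0425, 0.0415 and 0.0298. Without injured library 1_2, 1 member, Uqcr10, was called, and without injured library 5_2 there were 21, with no share of all genes counted for either fit. With the length trend taken out 2 members, Uqcr10 and Ndufa8, were called (3.53% of all genes, adjusted p = 0.0286 for Ndufa8). The members with values below 0 in CD44low Tregs were Ndufs1 (-0.18 ± 0.11), Atp5g2 (-0.19 ± 0.20) and Ndufa6 (-0.05 ± 0.15), none called (edgeR adjusted p = 0.332, 0.585 and 0.853). The Ndufa6 value joins unlike libraries, with 56.1 to 69.1 CPM in injured 1, 2 and 5 and 97.0 to 119 CPM in 1_2, 4_2 and 5_2. Uninjured CD44low libraries had 79.2 to 98.2 CPM. No paralog family of complex IV was called in an injury comparison, with Cox4i1 at 0.21 ± 0.13 and 0.13 ± 0.11, Cox5a at 0.11 ± 0.13 and 0.09 ± 0.11, and Cox7a2l at 0.33 ± 0.20 and 0.08 ± 0.17 in CD44high and CD44low Tregs. Electron carriers were not called either, such as Cyc1 (0.33 ± 0.12 in CD44low, edgeR adjusted p = 0.0846) and Cycs (0.37 ± 0.16 in CD44high, edgeR adjusted p = 0.283).

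Of 6 neutrophil markers 2 passed the filter, of which 1 was called higher after injury in each subset (1.06% of all genes in CD44high and 4.24% in CD44low Tregs). Their summed level stood at 0 to 0.5 CPM in CD44high libraries of uninjured and 2.12 to 20.2 CPM in those of injured mice, and at 0 to 1.69 and 0 to 30.4 CPM in CD44low libraries. Their part in the injury comparisons was not tested. The 10 cycling genes were all below 0 after injury in CD44high Tregs, with a median log2 fold change of -0.57, and for 7 of them every injured library lay below every uninjured one (7.34% of all genes), though 0 of 10 were called. In CD44low Tregs 1 of 10 was called higher. The macrophage and dendritic cell list had 0 of 8 called in CD44high and 1 of 8 called higher in CD44low Tregs.

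Whether injury acted differently on the subsets was tested by the interaction. edgeR called no member at an adjusted p under 0.05, where 0.192% of all genes were called with a larger and 0.454% with a smaller effect in CD44high Tregs. At an unadjusted p under 0.05 edgeR passed 2 members with a larger effect in CD44high Tregs (3.95% of all genes) and none with a smaller one (6.93%). These were Ndufa6 (0.55 ± 0.23, edgeR adjusted p = 0.367) and Cox7c (0.45 ± 0.20, edgeR adjusted p = 0.409). DESeq2 called none. Without the 3 libraries with a second number edgeR called 2 members with a larger effect in CD44high Tregs. The share of all genes called in that fit was not counted. In the fit of all libraries, next in the same direction came Atp5e (0.35 ± 0.20), Ndufs6 (0.30 ± 0.18), Ndufb2 (0.31 ± 0.22) and Ndufs8 (0.22 ± 0.18). In the other direction stood Ndufa9 (-0.36 ± 0.19), Ndufv1 (-0.28 ± 0.15), Sdhd (-0.28 ± 0.16), Uqcrc1 (-0.28 ± 0.16), Cyc1 (-0.27 ± 0.18) and Atp5s (-0.56 ± 0.39), with edgeR adjusted p of 0.502 or more. The 4 subunits of complex II were all below 0, from -0.28 for Sdhd to -0.06 for Sdha, without a call. A called injury effect in one subset and none in the other therefore does not show a difference between them.

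Genes that build and feed the chain were counted beside it from the same fit. Of all genes, 24.7% were called higher and 21.3% lower in CD44high Tregs of uninjured mice, and 20.1% and 17.2% in injured mice. Several of these lists lie near those shares. Regulators of mitochondrial biogenesis held more lower than higher calls, with 2 of 14 tested called higher and 6 lower in CD44high Tregs of uninjured mice and 1 higher and 5 lower in injured mice. Those lower in both were Myc (-1.42 ± 0.10 and -1.25 ± 0.10), Pprc1 (-1.51 ± 0.24 and -1.22 ± 0.23) and Ppargc1b (-0.92 ± 0.21 and -0.76 ± 0.20), of which Pprc1 and Ppargc1b are coactivators of the PGC-1 family, and Polg and Polrmt, the polymerases of mitochondrial DNA and RNA. Gabpb1, a subunit of GABP, was called higher in both (0.26 ± 0.10 and 0.25 ± 0.09), and Tfam, which packs mitochondrial DNA, in uninjured mice (0.28 ± 0.11). Of 13 tricarboxylic acid cycle genes 4 were called higher and 1 lower in uninjured and 3 higher and 1 lower in injured mice, led by Idh3a (0.75 ± 0.12 and 0.63 ± 0.11). Of 12 carriers and channels 4 and 6 were called higher and none lower, among them the ADP/ATP carrier Slc25a4 (0.80 ± 0.11 and 0.73 ± 0.11). Among assembly factors, 1 of 14 for complex I was called higher and 2 lower in uninjured mice, and 3 of 21 for complex IV higher and 1 lower, with Cmc2 (1.06 ± 0.19) and Lrpprc (-0.89 ± 0.17) at the ends. In injured mice 1 of 14 for complex I was called higher, 5 of 21 for complex IV higher and 2 lower, and 1 of 4 for complex II lower. Those for complexes III and V had no call in any comparison. After injury these lists held 1 call in CD44high Tregs, Myc (0.45 ± 0.11), among 14 biogenesis regulators tested. In CD44low Tregs they held 6 calls that were higher and 1 that was lower. The higher calls were 1 of 14 complex I, 1 of 4 complex II and 2 of 21 complex IV assembly factors. To these came 1 of 13 tricarboxylic acid cycle genes and 1 of 12 carriers and channels, which also held the lower call. Of all genes 1.06% were called higher after injury in CD44high Tregs, and 4.24% higher and 3.36% lower in CD44low Tregs.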

How the data were processed

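CD44high and CD44low Tregs of uninjured and injured mice were measured by RNA sequencing (RNA-seq) in 19 libraries, made from 1 ng of RNA with SMART-Seq v4 and Swift 2S. The authors deposited 1 table of raw counts per gene, with totals of 5582234 to 9433610 per library, and no value was normalized in it. Per the submitters' processing notes bcl2fastq 2.18 and STAR 2.5 were used, and the builds mm9 and mm10 are named without their roles. For the counting strand and the annotation, the sources used here give nothing.

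Counts were tested with edgeR 4.0.16 (R 4.3.3), with TMM factors, 1 mean for each of 4 groups and the quasi-likelihood test, after filterByExpr with a minimum count of 10, which left 11464 genes. The Benjamini-Hochberg adjustment ran over all of them, and a gene was called at an adjusted p under 0.05. The SE is the size of the log2 fold change divided by the square root of F. CPM used TMM-scaled totals. Lengths and copies came from GENCODE vM21 and BLAST 2.17.0, and promoters from RefSeq. Alternatives were DESeq2 1.42.0, other factors, no filter, thinning, fits on the compared groups alone, a replicate block, the length trend taken out (also centred in each library, added after seeing the data), other handling of the libraries with a second number, and leaving out each library. The fits were tested on simulated data. Figures used Python 3.11.15, pandas 2.3.3 and matplotlib 3.10.9.

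Members and lists were chosen with earlier results of these data known. Named genes were complex II, Cyc1, Cycs and the paralog families of complex IV, Ndufa4 and Atp5g, with the 2 of smallest p in each direction among called members of complexes I, III, IV and V. For injury and the interaction the 6 of smallest p in each direction were added, and every called member where at most 12 were called. Further genes are named where a sentence lists called members. No pair of libraries of a group agreed within sampling noise. The result of 1 member is not reported here by name.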

Additional observations from a re-analysis of the deposited data

Results flagged for a closer look

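Of 128 groups of 4 to 10 libraries tested, 8 held a library that stood apart from the rest by Dixon's 95% critical value, and chance alone sets apart about 1 group in 20. Injured CD44low library 1_2 was the highest of its group for the share of counts of complex I (0.462232%) and of complex III (0.181743%), and for Ndufa12 (66.4811 CPM) and Ndufb9 (167.753 CPM). Uninjured CD44low library 4 had the lowest complex II share of its group (0.0988878%). Uninjured CD44low library 1 was lowest for Atp5f1 (176.167 CPM). Uninjured CD44high library 2 was lowest for Atp5g3 (334.074 CPM) and Cox5a (199.269 CPM).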

How the results depend on the processing

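Counts of called members, higher in CD44high Tregs of uninjured mice (12), higher there in injured mice (15), higher after injury in CD44high (2) and in CD44low Tregs (6), depended on the fit. Fitting only the groups compared gave 25, 7, 15 and 1. Leaving out the 3 libraries with a second number gave 24, 39 and 14 for the counts up to CD44high injury, 1 member lower after injury in CD44low Tregs, and 2 with a larger injury effect in CD44high Tregs. Those 3 libraries alone as the injured CD44low group gave 4 higher and 4 lower members in CD44high Tregs of injured mice and 4 after injury in CD44high Tregs, and summing libraries 1 with 1_2 and 5 with 5_2 gave 19 higher in CD44high Tregs of uninjured mice and 4 after injury in CD44high Tregs. An adjusted p under 0.01 left 7 higher in CD44high Tregs of injured mice and 0 in both injury counts. A p under 1e-06 with a 2-fold change left 0 in each count, the 3 and 1 lower calls included. DESeq2 gave 4 and 12 after injury in CD44high and CD44low Tregs, and thinning gave 4 in CD44high Tregs. With the length trend taken out but not centred 14 and 13 members were lower in CD44high Tregs of uninjured and injured mice, 2 were higher after injury in CD44low Tregs, and Atp5f1 reversed to -0.00229571 in uninjured mice. Centred, a correction chosen after seeing the data, it gave 30 and 29 higher in uninjured and injured mice and 2 after injury in CD44low Tregs. Leaving out 1 library gave 9 to 20, 8 to 36, 0 to 5 and 1 to 21, and 1 to 2 lower in injured mice. Without injured CD44high library 2 and injured CD44low library 1_2 together, chosen after seeing the data, 20 were higher in CD44high Tregs of uninjured mice. The cause of these changes was not tested, and for most of these fits the share of all genes called was not counted.

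The labels do not say that a replicate number marks a shared animal or day, and correlations of same-numbered deviations within a condition ran from -0.05 to 0.167 over 8 pairs, 4 of them over 0.1, so the numbers were not treated as pairs. The replicate block on the number gave 1 and 0 higher after injury in CD44high and CD44low Tregs, and the replicate block nested in condition gave 26 higher in CD44high Tregs of injured mice.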
